A study of Mus musculus with 8 samples.

Results

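Dystrophin, its membrane partners and the intermediate filaments of muscle were examined in the hearts of WT mouse embryos and of embryos labelled SIRT1 KO, both at E18.5. The genes were *Dmd* (dystrophin), *Dag1* (dystroglycan), *Sgca*, *Sgcb* and *Sgcd* (α-, β- and δ-sarcoglycan), *Des* (desmin), *Vim* (vimentin), *Synm* (synemin) and *Cryab* (αB-crystallin). They are 9 of 19096 genes that could be named on the array, and 15 of its 41174 probes, taken as every non-control probe whose RefSeq accession belongs to one of them. None of these probes passed the test between genotypes, and the intervals held most differences to less than 1.41-fold in either direction.

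The array was a one-color Agilent whole mouse genome array with 1 heart per array, 4 arrays per genotype. All embryos carry the C57BL/6 strain label, came from mice kept on chow and received no treatment. The knockout is a whole-body, germ-line deletion of *Sirt1*, an NAD+-dependent protein deacetylase, so every cell type of the heart and of the embryo carried it. Litter and sex are not given per sample in the sources used here, and the p-values measure the spread between these 8 samples only.

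Dystrophin lies beneath the muscle cell membrane and joins cortical actin to dystroglycan, which spans the membrane and holds laminin in the matrix outside. The sarcoglycans form a separate membrane subcomplex that steadies dystroglycan and dystrophin. Desmin filaments run between the Z-discs of neighboring myofibrils and out to the membrane at costameres and intercalated discs, with synemin as a partner that also binds dystrophin and αB-crystallin as a chaperone of the filaments. Vimentin is the main intermediate filament of fibroblasts, endothelial cells and other mesenchymal cells. Loss of several of these proteins causes muscular dystrophy or cardiomyopathy, and the study asked how SIRT1 bears on the order of myofibrils and cardiomyocytes.

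The promoters of *Des* and *Vim* are shown because they are the pair of filament genes set against each other within each heart. Both come from RefSeq (GRCm38.p6), are 300 bases long (250 before and 50 after the annotated start), are written 5′ to 3′ on the plus strand, and carry every CANNTG (E-box) match in capitals.
Des, chr1:75360042-75360341: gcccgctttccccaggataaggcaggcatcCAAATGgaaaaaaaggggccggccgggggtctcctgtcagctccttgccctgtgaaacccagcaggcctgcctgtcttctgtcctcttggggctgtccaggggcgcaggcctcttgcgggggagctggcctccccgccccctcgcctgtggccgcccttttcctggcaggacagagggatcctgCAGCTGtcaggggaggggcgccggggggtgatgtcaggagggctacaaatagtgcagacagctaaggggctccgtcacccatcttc
Vim, chr2:13574061-13574360: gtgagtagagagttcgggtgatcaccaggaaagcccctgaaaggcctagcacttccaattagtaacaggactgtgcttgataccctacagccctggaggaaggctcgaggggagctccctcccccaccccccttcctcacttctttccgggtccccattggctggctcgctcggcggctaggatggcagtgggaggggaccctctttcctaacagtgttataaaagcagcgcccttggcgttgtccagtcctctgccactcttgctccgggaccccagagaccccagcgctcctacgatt
The *Des* promoter held 2 CANNTG matches and 2 GGGCGG matches (either strand) and no TATAAA, with a GC content of 65.3%. The *Vim* promoter held no CANNTG and no GGGCGG but 1 TATAAA, with a GC content of 59.3%. Of 32851 RefSeq mouse promoters of this length, 72.3% held CANNTG, 35.7% GGGCGG and 13.6% TATAAA. These are matches of letters, and nothing measured on the arrays bears on whether they are used.

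Signals are given as log2 of the processed intensity minus the array's own 75th percentile, so that 0 is the brightness of the probe at that percentile. Because probes differ in how well they bind, a signal is compared between hearts for the same probe. Differences and sums of several probes within a heart are likewise compared between hearts, and are not ratios or totals of transcripts. Of the 15 probes, 14 were well above background on all 8 arrays and were tested. The remaining probe, a *Dmd* probe named by a predicted transcript accession, stayed at background level on every array. Of all 25624 probes tested with limma, 1257 passed an adjusted p of 0.05 (4.91%). None of the 14 probes of the dystrophin complex and the filaments passed by limma, with adjusted p from 0.201 to 0.950. None passed by an analysis of variance on the same scaled values, the type of test that the methods name. A single probe, the dimmer one of *Cryab*, had an unadjusted p under 0.05, against 21.5% of all probes tested. The same probe was the only one whose genotypes did not overlap, against 13.7% of all probes. The differences between genotypes ran from -0.15 to 0.24 on the log2 scale, 8 of them higher and 6 lower in the KO-labelled hearts. Their median was 0.03 and that of all probes tested was 0.01. With median scaling or no scaling the median of all probes moved to -0.12 or -0.21, and 4 or 1 of the 14 were higher. Without scaling 3 of the 14 passed, against 6351 of all 25624 probes tested. With normexp background correction 1 of the 14 passed, against 2640 of all probes. The median size without sign of the 14 differences was 0.107, against 0.133 for all probes tested. The 95% intervals of 12 of the 14 probes lay within 0.5 on the log2 scale of no difference, which is 1.41-fold. The exceptions were both probes of *Synm*.

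**Figure D1:**
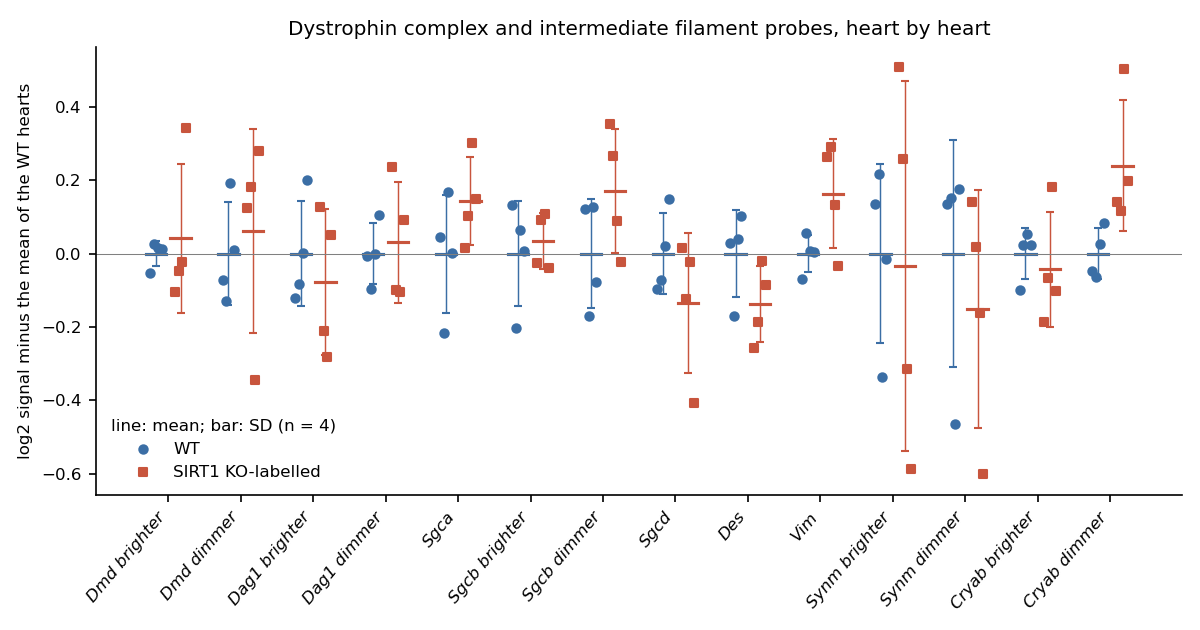
Signal of each of the 14 probes in each heart, on the y axis as log2 signal minus the mean of the WT hearts for that probe. Circles are WT and squares are KO-labelled hearts, lines are means and bars are SD over 4 hearts. Only the dimmer Cryab probe separates the genotypes, and both Synm probes spread most widely.

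Several facts of the arrays bear on every value. On the WT arrays 24939 to 25752 probes were well above background, and on the KO-labelled arrays 24497 to 26747. The 75th percentile of intensity was 939 to 1033 on the WT arrays and lower, 777 to 906, on the KO-labelled arrays. Scaling takes this gap out, and values without scaling keep it. All WT arrays were on 1 slide with 1 scan and all KO-labelled arrays on another, so slide and genotype cannot be told apart. The targeted gene, *Sirt1*, was not lower in the KO-labelled hearts. Its brighter probe read -0.14, 0.32, 0.00 and 0.00 in the WT hearts and 0.64, 0.50, 0.43 and 0.75 in the KO-labelled hearts. It was higher by 0.54 (SE 0.11, adjusted p = 0.0323). That call was lost with median scaling, no scaling, no filter, the analysis of variance or a block for replicate number. It was also lost without any of 6 of the 8 arrays. The other *Sirt1* probe differed by -0.11 (adjusted p = 0.589). Where these probes lie relative to the deleted part of the gene is not given in the sources used here, so they do not check the labels, and every direction below is between hearts by their labels. The 8 cardiomyocyte markers (such as *Tnnt2* and *Actn2*) were all detected, with a summed level of 1099 to 1222 times the 75th percentile in WT and 1096 to 1337 in KO-labelled hearts, and the lung and thymus markers on the array were not well above background. Liver markers ranged from 3.37 to 11.0 in WT and from 4.00 to 48.0 in KO-labelled hearts, with replicate 1 the highest. Skeletal muscle, which also makes the dystrophin complex, gave marker sums of 92.3 to 109.9 in WT and 102.9 to 124.5 in KO-labelled hearts, nearly all of it from the probe of *Myh8*, with 4 of 5 tested markers higher, *Myog* passing the test (a call lost with each of the 4 other scalings and in the analysis of variance) and *Myod1* and *Actn3* not well above background. Its part in the values below was not tested. Hearts were measured whole, so fewer cells of a type and less RNA per cell cannot be told apart.

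Dystrophin did not differ detectably between the genotypes. On the brighter *Dmd* probe the WT hearts read 0.30, 0.38, 0.36 and 0.36 and the KO-labelled hearts 0.25, 0.30, 0.33 and 0.69. The genotypes overlapped, with 3 of the 4 KO-labelled hearts within or just under the WT range and replicate 4 above all others. The difference was 0.04 (95% interval -0.19 to 0.27, adjusted p = 0.850), and without KO-labelled replicate 4 it was -0.06. The dimmer *Dmd* probe read -2.75, -2.81, -2.49 and -2.67 in WT and -2.56, -2.50, -3.03 and -2.40 in KO-labelled hearts. KO-labelled replicate 4 was again the highest, replicate 3 was the lowest of all 8, and the difference was 0.06 (-0.26 to 0.38, adjusted p = 0.839). The direction of both probes turned to lower when arrays were scaled by their median (-0.09 and -0.07) or not scaled at all (-0.18 and -0.16).

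Utrophin, the close homolog of dystrophin that can stand in for it in muscle, differed by 0.02 (adjusted p = 0.922) on its brightest probe, and by -0.24 (adjusted p = 0.303) and -0.04 (adjusted p = 0.818) on its other 2 probes. The difference *Dmd* minus *Utrn* was computed within each heart, which removes the scaling between arrays. It differed between genotypes by 0.02 on the log2 scale (exact two-sided permutation test, p = 0.771, 4 hearts against 4), and the genotypes overlapped. Over the mean of all tested probes of each gene the difference was 0.14 (exact permutation p = 0.2), and with normexp it was 0.07 (exact permutation p = 0.343).

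Dystroglycan, the laminin receptor of the complex, was also within the spread of the hearts. Its brighter *Dag1* probe read 1.77, 1.81, 1.89 and 2.09 in WT and 2.02, 1.68, 1.61 and 1.94 in KO-labelled hearts. KO-labelled replicates 2 and 3 lay under every WT heart and replicates 1 and 4 among the brightest. The difference was -0.08 (-0.34 to 0.18, adjusted p = 0.734). The dimmer probe read -1.01, -1.10, -1.004 and -0.89 in WT and -0.77, -1.10, -1.11 and -0.91 in KO-labelled hearts. It ranked the hearts nearly as the brighter one did, and its difference was 0.03 (adjusted p = 0.882), turning to -0.10 with median scaling and -0.19 with none.

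Among the sarcoglycans, *Sgca* read 1.29, 1.03, 1.42 and 1.25 in WT and 1.26, 1.35, 1.55 and 1.40 in KO-labelled hearts. α-Sarcoglycan is the striated muscle form, and its probe overlapped between genotypes with a difference of 0.14 (-0.09 to 0.37, adjusted p = 0.447). It turned to -0.08 without scaling. The brighter *Sgcb* probe read 2.43, 2.10, 2.36 and 2.31 in WT and 2.27, 2.39, 2.41 and 2.26 in KO-labelled hearts, with WT replicate 2 the lowest of the 8. β-Sarcoglycan, the core subunit, therefore differed by 0.03 (-0.17 to 0.24, adjusted p = 0.862) on this probe, a direction that turned with median scaling (-0.10) and with none (-0.19). The dimmer *Sgcb* probe read 1.53, 1.24, 1.53 and 1.33 in WT and 1.76, 1.67, 1.49 and 1.38 in KO-labelled hearts. Its 2 highest hearts were KO-labelled, and the difference was 0.17 (-0.08 to 0.42, adjusted p = 0.398), or -0.05 without scaling.

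δ-Sarcoglycan, which pairs with the β subunit, was the sarcoglycan with the lowest difference. The *Sgcd* probe read -2.30, -2.27, -2.18 and -2.05 in WT and -2.19, -2.33, -2.23 and -2.61 in KO-labelled hearts. The genotypes overlapped, and KO-labelled replicate 4 was the lowest of the 8. The difference was -0.13 (-0.38 to 0.11, adjusted p = 0.505), and it passed the test (-0.35, adjusted p = 0.0458) when the arrays were not scaled. Without KO-labelled replicate 4 the difference was -0.04.

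**Figure D2:**
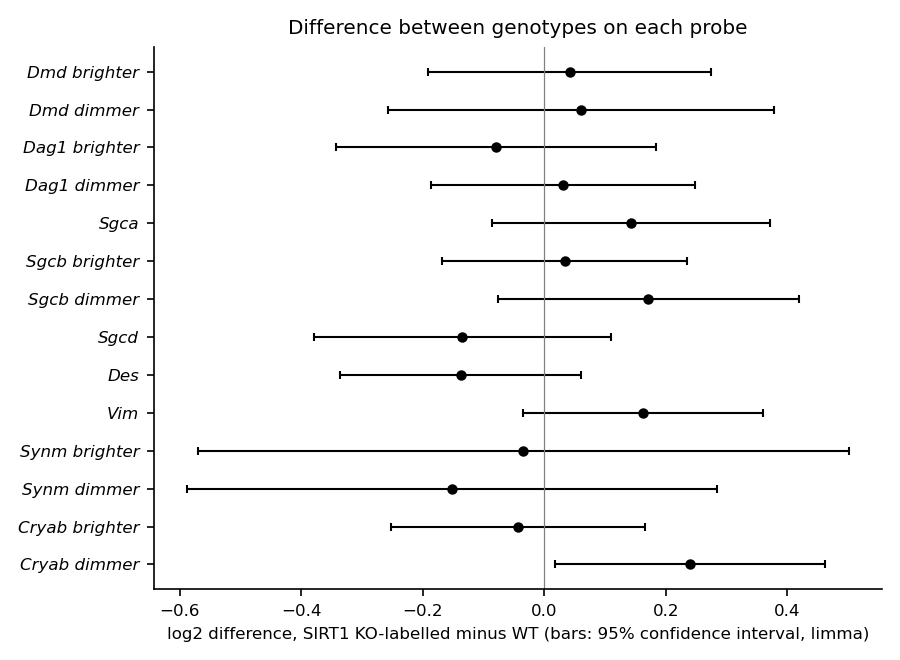
Difference between genotypes for each probe, x axis in log2 units as KO-labelled minus WT, with bars for the 95% confidence interval from limma over 4 and 4 hearts. The interval of the dimmer Cryab probe (0.02 to 0.46) is the only one that leaves out 0, and the Synm intervals are the widest.

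The filament genes showed differences of opposite sign. On its single probe *Des* read 3.58, 3.38, 3.59 and 3.65 in WT and 3.29, 3.36, 3.53 and 3.47 in KO-labelled hearts. KO-labelled replicates 1 and 2 lay under all WT hearts, and the other 2 fell within the WT range. Desmin thus differed by -0.14 (-0.34 to 0.06, adjusted p = 0.397), and without scaling between arrays the value was -0.36 and passed (adjusted p = 0.0195). The *Vim* probe read 6.34, 6.47, 6.42 and 6.41 in WT and 6.67, 6.70, 6.54 and 6.38 in KO-labelled hearts. KO-labelled replicates 1 to 3 lay above all WT hearts, and replicate 4 was within their range. Vimentin differed by 0.16 (-0.03 to 0.36, adjusted p = 0.319), or 0.03 with median scaling and -0.06 without scaling. The markers of fibroblasts, cells in which vimentin is the main filament, gave summed levels of 223 to 261 in WT and 206 to 260 in KO-labelled hearts, overlapping. Of these 7, 4 were higher and 3 lower and none passed the test, a split of 1 and 6 with median scaling and 0 and 7 without scaling. The endothelial markers, of another vimentin-rich cell type, gave 58.6 to 61.8 in WT and 54.8 to 62.4 in KO-labelled hearts. Of these 6, 1 was higher and 5 lower and none passed. The split was 0 and 6 with median scaling or none, and without scaling 3 were called, against 27.1% of all genes. The part of either cell type in the *Vim* values was not tested.

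Within each heart, where the scaling cancels, *Des* minus *Vim* was -2.76, -3.08, -2.83 and -2.76 in WT and -3.38, -3.34, -3.01 and -2.91 in KO-labelled hearts. The 2 lowest values were KO-labelled and the 3 highest were WT, and WT replicate 2 lay among the KO-labelled hearts. The genotypes differed by -0.30 (exact two-sided permutation test, p = 0.0857, where the smallest p that 4 hearts against 4 allow is 0.0286). With normexp background correction the difference was -0.27 (exact permutation p = 0.114). The value itself sets a probe against another probe and is no ratio of the 2 transcripts.

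Synemin, the large filament protein that bridges desmin to the dystrophin complex, varied most among hearts. Its brighter *Synm* probe read -0.30, -0.22, -0.77 and -0.45 in WT and 0.07, -0.18, -0.75 and -1.02 in KO-labelled hearts. The KO-labelled hearts held both the highest and the lowest value, and the SD was 0.244 in WT and 0.505 in KO-labelled hearts. The pooled SD of 0.397 compares with a median of 0.150 over all probes tested, of which 6.60% spread more widely. The difference was -0.03 (-0.57 to 0.50, adjusted p = 0.950). The dimmer *Synm* probe read -2.32, -2.31, -2.92 and -2.28 in WT and -2.32, -2.44, -2.62 and -3.06 in KO-labelled hearts. The same 3 hearts, WT replicate 3 and KO-labelled replicates 3 and 4, were lowest on both probes, and the difference was -0.15 (-0.59 to 0.28, adjusted p = 0.689). It was -0.31 without WT replicate 3 and -0.0012 without KO-labelled replicate 4. Giving arrays unequal weights turned these differences to 0.21 and 0.04. Smooth muscle also makes synemin, and the summed level of its 5 markers was lowest in KO-labelled replicate 4 (126.8) and WT replicate 3 (134.7), as were *Acta2*, which carries most of the sum, and *Cnn1*. KO-labelled replicate 3 had a sum of 174.6, and *Myh11* and *Tagln* were lowest in that heart, while *Myocd* was lowest in WT replicate 1. The part of smooth muscle in the spread of *Synm* was not tested.

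Neither probe of *Cryab*, the small heat shock protein that protects desmin filaments, passed as reported. The genotypes overlapped on the brighter probe and not on the dimmer, and whether the probes differ was not tested. On the brighter probe the WT hearts read 5.90, 6.03, 6.06 and 6.03 and the KO-labelled hearts 5.82, 5.94, 6.19 and 5.90. KO-labelled replicate 3 was the highest of the 8 and replicate 1 the lowest, and the difference was -0.04 (-0.25 to 0.16, adjusted p = 0.823), or -0.26 and past the threshold (adjusted p = 0.0449) without scaling. On the dimmer probe the WT hearts read 1.59, 1.57, 1.66 and 1.72 and the KO-labelled hearts 1.78, 1.75, 2.14 and 1.83. Every KO-labelled heart lay above every WT heart, again with replicate 3 the highest. The difference was 0.24 (0.02 to 0.46, adjusted p = 0.201, exact permutation p = 0.0286), and with normexp background correction it was 0.34 and passed (adjusted p = 0.0413). It was 0.11 with median scaling, 0.02 without scaling and 0.15 without KO-labelled replicate 3. Both probes carry the same transcript accession, and where on the transcript they lie is not given in the files.

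Of the 9 genes, 5 had a second probe in the test, which gives a second reading of the same heart. Over the 8 hearts the 2 probes of *Dag1* followed each other with a Pearson r of 0.851 (exact permutation p = 0.00734, adjusted over the 5 pairs p = 0.0184) and a Spearman rho of 0.952 (exact permutation p = 0.00114, adjusted p = 0.0057). Without the 2 hearts farthest from the median r was 0.885, and with the means of the genotypes removed it was 0.924. The *Synm* probes gave r = 0.861 (exact permutation p = 0.00506, adjusted p = 0.0184), rho = 0.643 (exact permutation p = 0.0962, adjusted p = 0.240) and r = 0.792 without the 2 farthest hearts. For *Dag1* and *Synm* the differences among hearts of one genotype were therefore seen on both probes. The *Sgcb* probes gave r = 0.543 (exact permutation p = 0.164, adjusted p = 0.273) and rho = 0.405 (exact permutation p = 0.327, adjusted p = 0.545). The *Dmd* probes gave r = 0.405 (exact permutation p = 0.296, adjusted p = 0.296) and rho = 0.262 (exact permutation p = 0.536, adjusted p = 0.671). For *Cryab* r was 0.447 (exact permutation p = 0.271, adjusted p = 0.296) and rho was -0.048 (exact permutation p = 0.935, adjusted p = 0.935). Without the 2 farthest hearts r fell to 0.148 for *Sgcb*, 0.016 for *Dmd* and -0.356 for *Cryab*. With the means of the genotypes removed, r for *Cryab* was 0.863, with KO-labelled replicate 3 the highest heart on both probes.

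**Figure D3:**
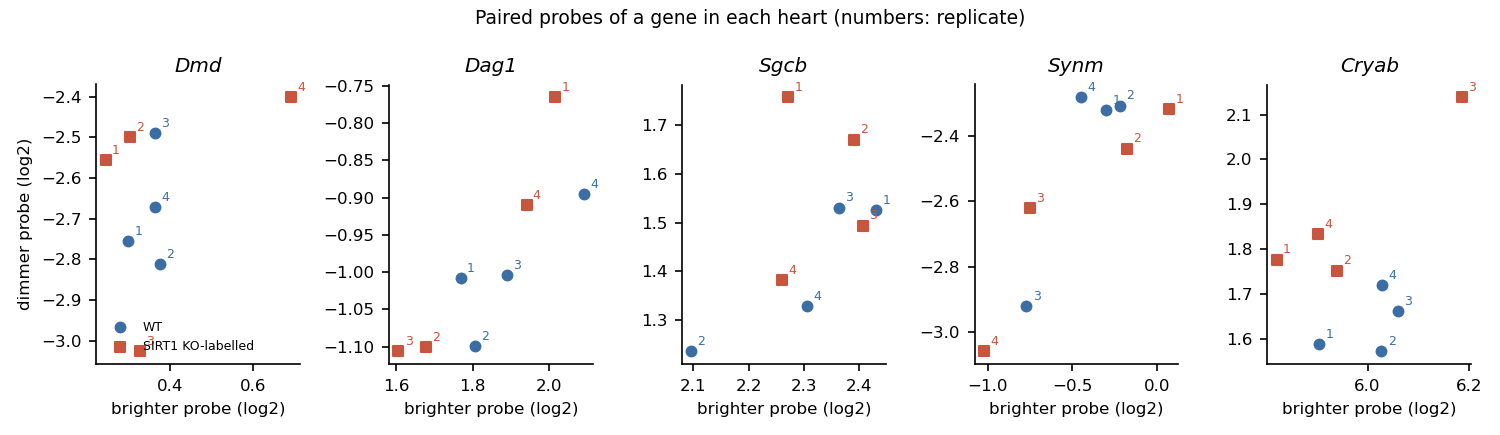
Signal of the brighter (x axis) and dimmer (y axis) probe of 5 genes in each heart, both as log2 signal. Circles are WT, squares are KO-labelled hearts and numbers are replicates. Synm shows WT replicate 3 and KO-labelled replicates 3 and 4 low on both probes, and Cryab shows no overlap of the genotypes on the dimmer probe (adjusted p = 0.201) and overlap on the brighter one.

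The genes whose signal followed that of *Dmd*, *Des* and *Vim* most closely over the 8 hearts were sought among 13541 genes, as a description, since 8 hearts and many genes give high values readily. For *Dmd* they were *Bod1l* (r = 0.978), *Aebp2* (0.962) and *Rnf103* (0.961). For *Des* they were *Snrpb* (0.991), *Gps1* (0.982) and *Spg7* (0.953), and for *Vim* they were *Cyp2e1* (0.967), *Crlf2* (0.966) and *Glyr1* (0.954). None of these was another member of the complex or the filaments. Against the other members r ran from -0.761 (*Sgcd*) to 0.213 (*Dag1*) for *Dmd*, from -0.734 (*Vim*) to 0.498 (*Cryab*) for *Des*, and from -0.734 (*Des*) to 0.573 (*Synm*) for *Vim*.

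Other genes of the same system were read from 7 lists of 84 genes, of which 73 were tested on their brightest probe. None passed by limma or by the analysis of variance, against 3.71% of the 13600 genes tested passing as higher and 0.912% passing as lower. An unadjusted p under 0.05 was reached by 15 of the 73 (20.5%), against 20.4% of all genes tested. In all, 28 were higher and 45 lower in the KO-labelled hearts, with a median of -0.03 against -0.01 for all genes. The split was 13 and 60 with median scaling, 7 and 66 without scaling, and 36 and 37 with cyclic loess. Over all 119 tested probes of these genes, 2 passed (1.68%, against 4.91% of all probes), 1 each of *Plec* and *Flnc*. The numbers of genes called with other scalings or background corrections are to be read against 7.38% of all genes called with median scaling, 27.1% without scaling and 9.07% with normexp.

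The matrix ligands of dystroglycan had 5 genes higher and 4 lower of 9 tested (median 0.15, or -0.07 without scaling). *Lama5*, the laminin α5 chain, had the smallest p of the list at 0.49 (SE 0.157, adjusted p = 0.121), with WT hearts at 1.18, 1.09, 1.12 and 1.40 and KO-labelled hearts at 1.88, 1.65, 1.24 and 1.98. Its KO-labelled replicate 3 lay within the WT range, and the gene passed without that heart or with array weights. *Lama2*, the laminin chain of the muscle basement membrane, differed by -0.08 (adjusted p = 0.699). Of the 16 tested enzymes that build the sugar chains of dystroglycan, 5 were higher and 11 lower (median -0.04, or -0.17 with 1 called under median scaling and -0.26 with 6 called without scaling), led by *B3galnt2* at -0.21 (adjusted p = 0.192, passing under 3 of 20 alternatives).

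Of the other sarcoglycans and sarcospan, *Sgce* differed by 0.08 (adjusted p = 0.600, and -0.05 with median scaling) and *Sspn* by -0.05 (adjusted p = 0.778). A dimmer *Sgce* probe differed by 0.21 (adjusted p = 0.253). Neither gene passed, as none of *Sgca*, *Sgcb* and *Sgcd* did. Among the 12 tested cytoplasmic partners, which include the dystrobrevins and syntrophins, 5 were higher and 7 lower (median -0.04), a split that became 1 and 11 with median scaling and 0 and 12, with 1 called, without scaling. The smallest p there belonged to the adaptor *Grb2* at 0.14 (adjusted p = 0.335, and -0.08 without scaling).

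The other intermediate filaments had 1 gene higher and 10 lower of 11 tested (median -0.14). The higher gene was the neurofilament *Nefm*, well above background on 1 WT and 3 KO-labelled arrays. The 3 tested Schwann cell and neuron markers were also higher, *Sox10* by 0.80 (adjusted p = 0.0198, a call lost in the analysis of variance), with summed levels of 0.369 to 0.414 in WT and 0.475 to 0.573 in KO-labelled hearts, and their part in the *Nefm* signal was not tested. *Nes* (nestin), a filament of immature muscle, differed by -0.09 (adjusted p = 0.582). The epithelial keratins had the lowest values of the list. *Krt19* read 1.48, 1.47, 1.02 and 1.29 in WT and 0.72, 1.06, 0.31 and 0.15 in KO-labelled hearts, a difference of -0.76 (SE 0.199, adjusted p = 0.0677). Only KO-labelled replicate 2 reached the WT range, and *Krt19* passed under 6 of 20 alternatives, among them median scaling, no scaling and normexp. *Krt7* (-0.71, adjusted p = 0.160), *Krt8* (-0.62, adjusted p = 0.120) and *Krt18* (-0.47, adjusted p = 0.120) had the same sign. They were named after their values were seen, and passed under 2, 4 and 3 of the alternatives. Each was lowest of all hearts in KO-labelled replicate 4 (0.42, -0.60 and 1.10). Keratins of simple epithelia mark the mesothelial covering of the heart. The 5 epicardial markers, of which *Krt19* is also one, were all lower under each scaling. *Msln* differed by -0.54, *Upk3b* by -0.43, *Aldh1a2* by -0.30 and *Wt1* by -0.20. The genotypes overlapped on every marker but *Aldh1a2*, and 13.7% of all probes tested did not overlap. The summed level of the 5 markers was 18.66 to 21.96 in WT and 11.4 to 17.5 in KO-labelled hearts, without overlap. *Msln* gave the largest part of it. None of the 5 passed as reported here, while 2 passed with median scaling, 3 with none and 2 with normexp. The part of the epicardium in the keratin values was not tested.

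The linkers and costamere proteins had 7 genes higher and 6 lower of 13 tested (median 0.12, or -0.01 with median scaling and -0.10 with none), and 6 of the 13 had an unadjusted p under 0.05, against 20.4% of all genes tested. Plectin, the cross-linker that ties desmin filaments to Z-discs and costameres, was read by 3 probes. Its brightest probe read 0.29, 0.02, 0.22 and 0.65 in WT and 0.76, 1.28, 0.37 and 0.62 in KO-labelled hearts. The genotypes overlapped, KO-labelled replicate 2 stood highest, and the difference was 0.46 (adjusted p = 0.223). A much dimmer *Plec* probe read -4.93, -5.49, -4.83 and -4.91 in WT and -4.07, -4.00, -4.49 and -4.57 in KO-labelled hearts. It rose by 0.76 (SE 0.180, adjusted p = 0.0484) without overlap, while the third probe differed by 0.07 (adjusted p = 0.784, and -0.06 with median scaling).

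Filamin C, which joins actin at the Z-disc to the sarcoglycans, gave the other probe that passed. That dim *Flnc* probe read -3.17, -3.42, -3.07 and -3.18 in WT and -2.62, -2.56, -2.95 and -2.64 in KO-labelled hearts, a rise of 0.52 (SE 0.111, adjusted p = 0.0329) without overlap. The brightest *Flnc* probe differed by 0.36 (adjusted p = 0.115, passing with normexp or array weights) and the third by 0.26 (adjusted p = 0.235), so all 3 had the same sign. Each of these dim probes passed under 7 of 20 other ways of processing, and lost its call with median scaling or with none. *Dysf* (dysferlin, a membrane repair protein) had the smallest p of the list on brightest probes, at -0.26 (SE 0.074, adjusted p = 0.0814). It read 0.37, 0.24, 0.41 and 0.48 in WT and 0.17, 0.10, 0.05 and 0.12 in KO-labelled hearts, with every KO-labelled heart under every WT heart, and passed under 4 of 20 alternatives (median scaling, no scaling, normexp and array weights). *Dsp* (0.38), *Vcl* (0.21) and *Nebl* (-0.31), the remaining genes with an unadjusted p under 0.05, were named after their values were seen and did not pass either (adjusted p = 0.130, 0.215 and 0.0892), although *Nebl* did with median scaling or none. The other 3 *Dsp* probes lay between -0.07 and 0.14, and the genotypes overlapped on each.

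Of the other small heat shock proteins and co-chaperones, 4 were higher and 5 lower of 9 tested, or 1 and 8 with median scaling and 1 and 8, with 3 called, without scaling. *Hspb8*, which works with αB-crystallin in chaperoning muscle proteins, differed by -0.28 (adjusted p = 0.188), and passed without scaling. *Hspb2*, the neighbor of *Cryab* in the genome, differed by 0.01 (adjusted p = 0.964) on its brightest probe, or -0.12 with median scaling. Its other probe differed by -0.17 (adjusted p = 0.387).

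**Figure D4:**
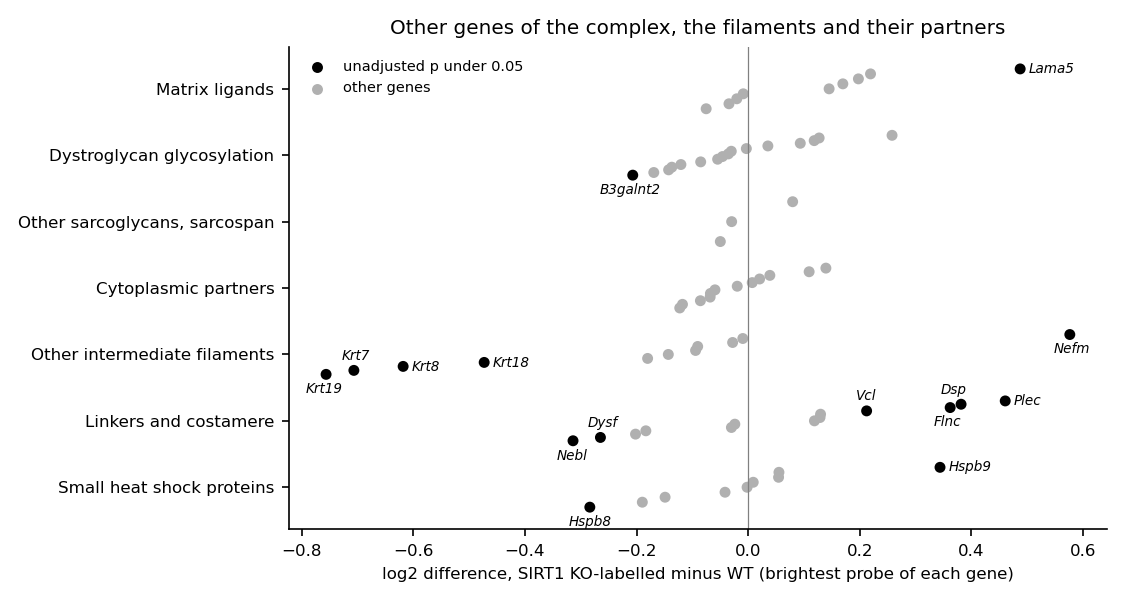
Difference between genotypes for the 73 tested genes of 7 lists, x axis in log2 units as KO-labelled minus WT on the brightest probe, 1 row of points per list. Black points have an unadjusted p under 0.05 and none passed after adjustment over all probes. The keratins lie farthest to the left, and Nefm, farthest to the right, was well above background on only 4 of the 8 arrays.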

How the data were processed

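Hearts of 4 WT and 4 SIRT1 KO-labelled embryos were hybridised to one-color Agilent arrays (500 ng of total RNA per sample). The authors deposited the spot intensity that Agilent Feature Extraction wrote (version 12.0.0.7 in the file headers), background-subtracted and not scaled between arrays, and a series table whose intensity values equal it. Their own comparison was an analysis of variance with Benjamini-Hochberg adjustment.

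Here control and outlier spots were left out, the processed signal was put on the log2 scale relative to the 75th percentile of its array, and replicate spots were averaged. Probes were named through unversioned accessions in RefSeq (28223 of 41174, 68.5%). The test covered probes detected well above background on 4 or more of the 8 arrays, run with limma 3.58.1 in R 4.3.3, adjusted over all 25624. Single comparisons used exact permutation tests (Python 3.11.15, scipy 1.17.1). The number of arrays limits the precision. On simulated arrays of 25544 probes, 200 of them changed by 1 log2 unit, 86% were recovered. Members and lists were chosen with earlier results of these data known. Named genes were all members, *Sirt1*, 8 genes always included (1 of them not reported here), called genes or the smallest p of each list, and the 3 genes most like *Dmd*, *Des* and *Vim*. The brightest probe of a gene has its highest mean signal. Alternatives covered background correction, scaling, filter, test, array weights, outlier spots, replicate block and leaving out each array.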

Additional observations from a re-analysis of the deposited data

Results flagged for a closer look

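A single heart stood apart from the other 3 of its genotype in 2 of the 62 groups of 4 examined, where chance flags about 1 in 20 groups. The brighter *Dmd* probe read 0.30 in WT replicate 1, the lowest of the WT hearts, with the nearest at 0.36, and the gap was 0.843 of the group's range (critical value 0.829). These 4 hearts had the smallest SD of any member probe in a genotype, 0.035. The dimmer *Synm* probe read -2.92 in WT replicate 3, with the nearest WT heart at -2.32, a gap of 0.938 of the range. The same heart was also the lowest WT heart on the brighter *Synm* probe, at -0.77.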

How the results depend on the processing

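Over 20 alternatives, 4 of the 280 recomputed values for the 14 probes passed the test and 26 changed sign. Without scaling 3 of the 14 probes were called (*Cryab* brighter, *Des* and *Sgcd*), against 6351 of all 25624. With normexp on the median signal 1 was called (*Cryab* dimmer), against 2640 of all. That setting was added after seeing the data because the files hold no mean signal. Scaling mattered because the median of all probes was 0.01 as reported, -0.12 with median scaling and -0.21 with none, and the share of calls that were higher was 81.2%, 35.6% and 10.1% (63.9% with quantile normalization, 70.4% with cyclic loess). Of all probes, 1257 were called as reported, 1909 with median scaling, 6351 with none and 2640 with normexp. An analysis of variance on the values as reported called 550, and array weights gave 2138. Leaving out 1 array gave 660 (without WT replicate 3) to 1827 (without KO-labelled replicate 3). Genes of the 7 lists called were 6 with median scaling, 17 with no scaling, 8 with normexp, 4 with array weights, 1 (*Krt19*) when probes had to be well above background on all arrays, and 0 to 2 without 1 array (*Krt8* and *Krt19* without KO-labelled replicate 2). Apart from the scaling, the cause of these changes was not tested.

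Sign changes with median scaling and no scaling were -0.10 and -0.19 for the dimmer *Dag1* probe, -0.091 and -0.18 for the brighter and -0.072 and -0.16 for the dimmer *Dmd* probe, -0.10 and -0.19 for the brighter *Sgcb* probe, -0.053 and -0.14 for *Sgce*, -0.11 and -0.20 for *Utrn*, -0.12 and -0.21 for *Hspb2*, and -0.059 and -0.15 for the third *Plec* probe. With no scaling alone they were -0.077 for *Sgca*, -0.048 for the dimmer *Sgcb* probe, -0.057 for *Vim*, -0.080 for *Grb2* and -0.0073 for *Vcl*. With array weights they were -0.0075 for the brighter *Dmd* probe and 0.21 and 0.038 for the *Synm* probes. The dimmer *Dmd* probe gave -0.029 with quantile normalization and -0.0039 with cyclic loess. Normexp gave -0.033 for the brightest and 0.13 for another *Utrn* probe and -0.016 for *Hspb2*. Leaving out 1 array gave -0.12 to 0.0042 for the brighter *Cryab* probe, -0.038 to 0.076 for the dimmer *Dag1* probe, -0.058 to 0.091 and -0.012 to 0.20 for the *Dmd* probes, -0.034 to 0.077 for the brighter *Sgcb* probe, -0.21 to 0.15 for the brighter and -0.31 to -0.0012 for the dimmer *Synm* probe, -0.043 to 0.085 for *Utrn*, -0.050 to 0.058 for *Hspb2*, -0.026 to 0.17 for the third *Plec* probe and -0.022 to 0.082 for *Dmd* minus *Utrn*. The remaining probes of the 9 genes kept their sign, from -0.15 to -0.011 for the brighter *Dag1* probe, 0.070 to 0.20 for *Sgca*, 0.11 to 0.24 for the dimmer *Sgcb* probe, -0.18 to -0.044 for *Sgcd*, -0.19 to -0.098 for *Des*, 0.12 to 0.23 for *Vim* and 0.15 to 0.28 for the dimmer *Cryab* probe. The brighter *Sirt1* probe no longer passed with median scaling (0.40), no scaling (0.32), no filter (0.54) or the analysis of variance (0.54), and ran from 0.47 to 0.63 without 1 array, losing its call for 6 of the 8 arrays (adjusted p = 0.0657 to 0.0920; WT replicates 1, 3 and 4 and KO-labelled replicates 1, 2 and 4).

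The series speaks of 4 pairs without saying what a pair shares. The numbers were not taken to pair the hearts, since same-numbered hearts deviated together with correlations of 0.204, 0.208, 0.056 and 0.141, the third under 0.1, although each correlated best with its own number, a hint from the data. With the replicate block 1187 probes, none of the 14 and 1 gene of the lists (*Krt19*, adjusted p = 0.0315) were called, and *Sirt1* (0.54, adjusted p = 0.0644) was not. The dim *Plec* and *Flnc* probes each passed under 7 of the 20. Normexp on the mean signal and a slide block could not be fitted.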
